A study of Mus musculus with 12 samples.

Results

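The genes described here are 48 type I interferon-stimulated antiviral genes of the mouse, taken by symbol from a list of such genes, and all 48 were present among the 12483 genes of the deposited count table. They were measured in 12 RNA-seq libraries of RAW264.7 cells, a macrophage-like line from a male BALB/c mouse. The groups were KO clones under LPS/IFN-γ, KO clones in medium, WT clones under LPS/IFN-γ and WT clones in medium, with 3 libraries each. KO clones carry a CRISPR deletion of NRE1, made with constructs on both sides of it, and were raised from single cells that had been selected by GFP and puromycin. LPS, the bacterial product sensed by TLR4, was given at 10 ng/mL together with 50 ng/mL of IFN-γ, the type II interferon, and the cells were sampled after 6 h, as were the cells in medium. The KO clones are labelled 1A, 1B and 2 and the WT clones 1, 2 and 3, and each clone gave 1 library per condition. The labels do not say what NRE1 is, how KO 1A and KO 1B are related, or whether the WT clones had received the constructs, and no gene of the table is named NRE1, so the deletion could not be read from the counts. P-values therefore measure the spread between clones of 1 line.

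Interferon-stimulated genes are the effector arm of innate antiviral defence. Type I interferon signals through the receptor chains IFNAR1 and IFNAR2 and the kinases JAK1 and TYK2 to a complex that holds IRF9 and binds the interferon-stimulated response element (ISRE) in promoters, whereas IFN-γ acts mainly at the gamma-activated site (GAS). Macrophages respond to LPS by making IFN-β, which then acts on the same cells, and they also keep a basal level of these genes in the absence of a stimulus.

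RefSeq promoter windows, from 250 bases before to 50 bases after an annotated start, were matched by symbol for 39 of the 48 genes, giving 53 windows. The core of the ISRE, GAAA followed by 2 bases of any kind and GAAA again, read on both strands, was present in at least 1 window of 15 of the 39 genes (38.5%), against 366 of the 9002 genes of the table with a window (4.07%). The GAS letters, TTC and GAA with 3 bases of any kind between them, were present in 8 of the 39 genes (20.5%), against 753 of 9002 (8.36%), and 3 of the 39 genes held both. The 2 kinds of match shared bases in Bst2 and Ifitm3. The windows of 5 genes are printed from RefSeq on GRCm38.p6, 5′ to 3′ on the strand of the gene, with ISRE matches in capitals (they lie on the other strand and so read TTTC, 2 bases, TTTC), to set the 3 strongest responders that hold a match beside the 2 weakest responders that have a window. They are Ifit1 at chr19:34640639-34640938 on the plus strand, Rsad2 at chr12:26456403-26456702 on the minus strand, Ifit3 at chr19:34583279-34583578 on the plus strand, Trim25 at chr11:88999153-88999452 on the plus strand and Pnpt1 at chr11:29130494-29130793 on the plus strand.
Ifit1: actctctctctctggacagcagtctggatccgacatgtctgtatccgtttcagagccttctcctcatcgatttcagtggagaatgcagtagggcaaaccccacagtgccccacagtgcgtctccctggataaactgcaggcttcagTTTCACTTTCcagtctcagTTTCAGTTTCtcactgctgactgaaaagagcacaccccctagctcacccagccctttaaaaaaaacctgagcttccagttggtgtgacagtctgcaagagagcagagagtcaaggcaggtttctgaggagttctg
Rsad2: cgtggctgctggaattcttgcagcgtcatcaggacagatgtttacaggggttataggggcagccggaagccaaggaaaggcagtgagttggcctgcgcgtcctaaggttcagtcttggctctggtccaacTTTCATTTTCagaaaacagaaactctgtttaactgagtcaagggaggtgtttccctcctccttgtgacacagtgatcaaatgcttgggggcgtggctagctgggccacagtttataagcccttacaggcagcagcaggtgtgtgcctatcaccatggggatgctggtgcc
Ifit3: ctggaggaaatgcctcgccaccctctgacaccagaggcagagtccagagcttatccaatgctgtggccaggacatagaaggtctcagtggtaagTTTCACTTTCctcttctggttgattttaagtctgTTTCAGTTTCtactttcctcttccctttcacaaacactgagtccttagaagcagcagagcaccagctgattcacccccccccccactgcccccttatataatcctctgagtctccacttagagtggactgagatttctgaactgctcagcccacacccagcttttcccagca
Trim25: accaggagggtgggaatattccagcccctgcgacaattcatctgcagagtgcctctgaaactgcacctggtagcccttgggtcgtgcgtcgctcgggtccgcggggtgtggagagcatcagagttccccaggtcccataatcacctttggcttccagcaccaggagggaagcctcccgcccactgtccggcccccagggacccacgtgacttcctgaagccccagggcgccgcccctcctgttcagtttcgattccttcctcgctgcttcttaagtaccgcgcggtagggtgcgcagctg
Pnpt1: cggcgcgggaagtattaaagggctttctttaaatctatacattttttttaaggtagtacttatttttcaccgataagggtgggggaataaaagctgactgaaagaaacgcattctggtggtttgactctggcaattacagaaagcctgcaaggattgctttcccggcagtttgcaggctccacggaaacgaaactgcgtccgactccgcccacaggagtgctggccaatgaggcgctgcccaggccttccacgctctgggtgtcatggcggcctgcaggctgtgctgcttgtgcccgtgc
Ifit1 and Ifit3 held 2 matches each, Rsad2 held 1, and the letters were absent from the windows of Trim25 and Pnpt1. Only the 3 strong responders had to hold a match to be printed, so this contrast was partly set by the choice. Mx1 and Zbp1, among the 4 highest log2 fold changes in each genotype, had no window. Cmpk2, with a mean log2 response of 6.12, held no ISRE match, and Ifitm3, at 1.76, held 2. The median log2 response to LPS/IFN-γ of the 15 genes with an ISRE match was 4.68 in KO clones and 4.06 in WT clones, and that of the 24 genes with a window and no match was 3.31 in KO clones and 2.77 in WT clones. These are descriptions with no test, and a match is not evidence of a bound site.

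Total counts per library ran from 10624591 to 14388590, and the mitochondrial share of counts from 1.24% to 2.53%. All 8 macrophage markers on the list were measured, led by Lyz2 at 1790 to 14960 CPM (counts corrected for library size), with Mertk at 0 in 3 libraries. Of the markers of other cell types, 1 of 6 was measured for T or NK cells, 1 of 5 for B cells and 1 of 5 for neutrophils. The 4 fibroblast and 4 epithelial markers on the list were absent from the count table. Lck, of T or NK cells, moved with the stimulus, at 14.8 to 25.4 CPM in KO clones and 7.91 to 22.8 CPM in WT clones under LPS/IFN-γ, against 3.72 to 4.77 CPM in KO clones and 1.72 to 4.67 CPM in WT clones in medium. Blnk, of B cells, differed between WT clones, at 0.875 to 1.43 CPM in KO clones and 0.190 to 23.2 CPM in WT clones under LPS/IFN-γ, against 3.90 to 5.67 CPM in KO clones and 0.560 to 37.1 CPM in WT clones in medium. S100a8, of neutrophils, was at most 2.84 CPM in any library, and the part of these markers in the results was not tested. All 4 plasmacytoid dendritic cell markers were measured, but Siglech was at 0 in 4 libraries and reached 13.1 CPM, Ccr9 was at 0 in 5 libraries and reached 20.7 CPM, and Bst2 is itself among the 48 genes.

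All but 2 of the 48 genes were called higher in KO clones and all but 4 in WT clones. Those calls are from the main fit, which did not use the pairing by clone. A fit with clone as a block, which compares each clone with itself, called all 48 higher in each genotype. In KO clones 46 genes were called higher under LPS/IFN-γ than in medium and none was called lower (edgeR quasi-likelihood test, Benjamini-Hochberg adjusted p below 0.05), against 26.7% of all 12231 genes tested called higher and 27.6% called lower. In WT clones 44 were called higher and none lower, against 23.8% and 23.6% of all genes. The 48 genes were chosen with earlier results of these data known. Their excess over all genes was therefore not independent of the choice and is a description. The median log2 fold change of the 48 genes was 3.78 in KO clones, with a range of 0.42 to 8.29, and 3.21 in WT clones, with a range of 0.47 to 7.41, whereas the median over all genes tested was -0.01 in each genotype. A log2 fold change of at least 4 was reached by 22 of the 48 genes in KO clones and by 14 in WT clones, or by 20 in WT clones without WT 3. Leaving out WT 3 moved the WT fold change of 18 genes by more than 1.5-fold, 17 of them up, to 8.48 for Ifit1, 8.19 for Zbp1, 7.98 for Rsad2, 8.76 for Mx1 and 6.51 for Usp18 on the log2 scale. Leaving out WT 1 moved those of Ifit1 and Rtp4 down, leaving out KO 2 moved the KO fold changes of Ifit3, Ifit3b and Zbp1, and leaving out any other 1 clone moved none as far. Without overlap between the conditions, 46 genes stood higher under LPS/IFN-γ in KO clones (34.1% of all genes) and 42 in WT clones (25.2%). In bulk RNA, fewer responding cells and less RNA per cell cannot be told apart.

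**Figure D1:**
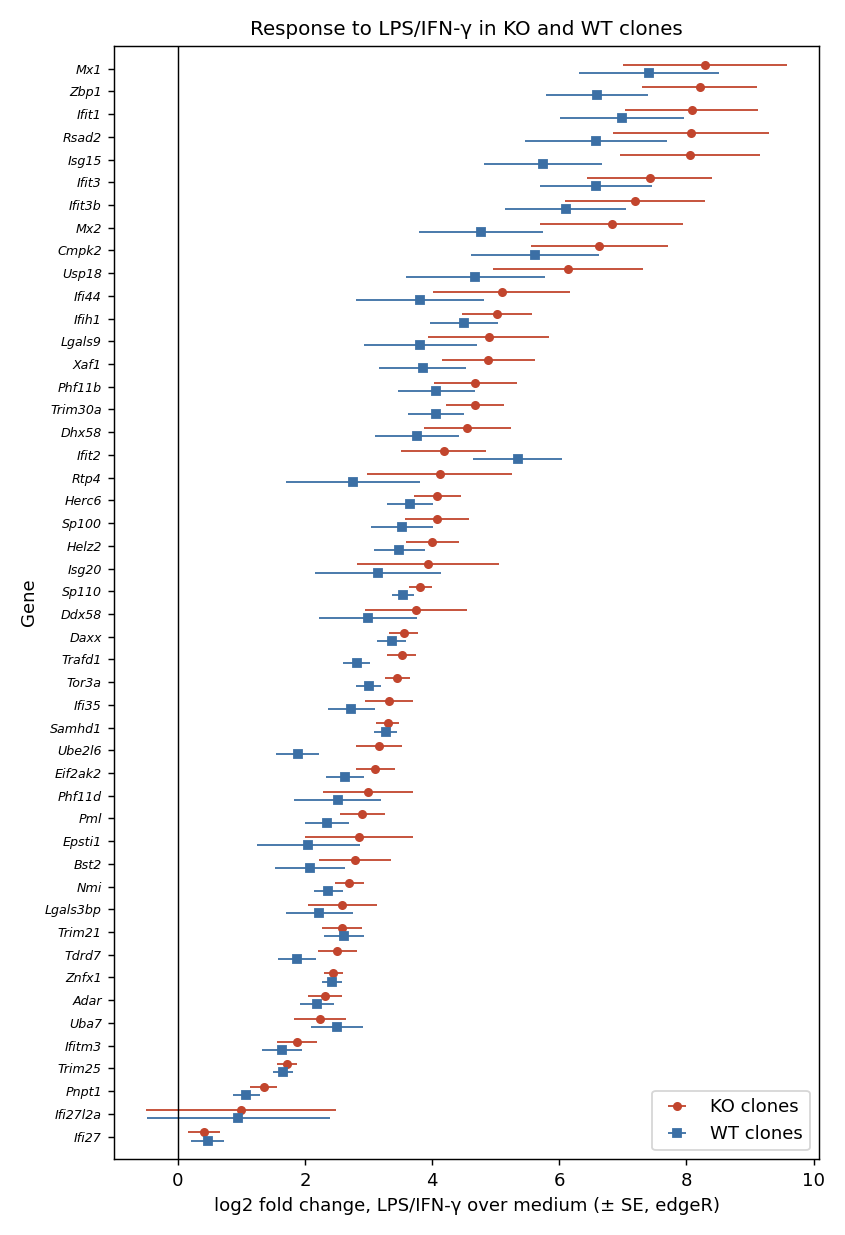
Log2 fold change of LPS/IFN-γ over medium for each of the 48 genes (horizontal axis, edgeR, bars are ± SE over 3 clones per group), in KO clones (red circles) and WT clones (blue squares), with genes ordered by the KO value. Every point lies above 0, from 0.42 for Ifi27 to 8.29 for Mx1 in KO clones.

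Among the 8 sensors of viral nucleic acid and their regulators, 8 rose in KO clones and 8 in WT clones, with median log2 fold changes of 3.43 and 2.82. Of all genes, 26.7% were called higher in KO clones and 23.8% in WT clones, and the same shares apply to each role group below. Zbp1, a sensor of Z-form nucleic acid that can trigger necroptosis, had 300, 264 and 362 CPM in KO 1A, 1B and 2 under LPS/IFN-γ, against 0.375, 0.541 and 2.30 CPM in the same clones in medium. In WT 1, 2 and 3 it had 316, 283 and 452 CPM under LPS/IFN-γ, against 1.38, 0.626 and 8.52 CPM in medium. The clones lay closer together under stimulation than in medium, and WT 3 was the highest in both conditions. Its log2 fold change was 8.21 ± 0.90 (SE) in KO clones (edgeR adjusted p = 4.3e-05) and 6.59 ± 0.80 in WT clones (adjusted p = 0.00011). Ifih1, which encodes the double-stranded RNA sensor MDA5, had 726, 674 and 923 CPM in KO clones under LPS/IFN-γ, against 19.9, 24.2 and 27.3 CPM in medium. In WT clones Ifih1 had 582, 433 and 1222 CPM under LPS/IFN-γ, against 17.97, 20.8 and 59.5 CPM in medium. Its conditions did not overlap in either genotype, and WT 3 was the highest clone in both conditions. Eif2ak2, the kinase PKR that shuts down translation on sensing double-stranded RNA, had 780, 750 and 718 CPM in KO clones under LPS/IFN-γ, against 84.7, 89.7 and 86.2 CPM in medium. In WT clones it had 688, 457 and 901 CPM under LPS/IFN-γ, against 86.7, 78.8 and 164 CPM in medium. The 3 KO clones lay close together in both conditions and the WT clones did not. Ddx58, which encodes RIG-I, rose by 3.75 ± 0.80 in KO clones and 3.00 ± 0.77 in WT clones on the log2 scale. Trim25, the ubiquitin ligase that acts with RIG-I, had 345, 388 and 352 CPM in KO clones under LPS/IFN-γ, against 121, 125 and 83.6 CPM in medium. In WT clones it had 362, 336 and 401 CPM under LPS/IFN-γ, against 106, 107 and 136 CPM in medium. Its rise was small and even in every clone, at 1.72 ± 0.16 in KO clones and 1.65 ± 0.16 in WT clones on the log2 scale.

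The 13 antiviral effectors had the highest median log2 fold change of the role groups in each genotype, at 6.63 in KO clones and 5.35 in WT clones, and all 13 rose in both. Ifit1, which binds viral RNA that lacks the host cap methylation, had 576, 494 and 1373 CPM in KO clones under LPS/IFN-γ, against 2.25, 2.91 and 3.86 CPM in medium. In WT clones it had 1225, 353 and 1209 CPM under LPS/IFN-γ, against 3.04, 1.33 and 17.2 CPM in medium. Under LPS/IFN-γ KO 2 was the highest clone for Ifit1 and WT 2 the lowest, while in medium WT 3 stood above the other 5. Its log2 fold change was 8.08 ± 1.04 in KO clones (edgeR adjusted p = 0.00012) and 6.99 ± 0.98 in WT clones (adjusted p = 0.00027). Rsad2, which encodes viperin, an enzyme that makes a chain-terminating nucleotide, had 391, 370 and 865 CPM in KO clones under LPS/IFN-γ, against 1.65, 2.37 and 1.97 CPM in medium. In WT clones it had 856, 222 and 1489 CPM under LPS/IFN-γ, against 3.40, 0.783 and 22.2 CPM in medium. Its WT clones followed the order 3, 1, 2 in both conditions. Mx1, a dynamin-like GTPase that is disrupted in most inbred strains, had 84.0, 73.8 and 108 CPM in KO clones under LPS/IFN-γ, against 0.375, 0.270 and 0.164 CPM in medium. In WT clones Mx1 had 124, 47.5 and 510 CPM under LPS/IFN-γ, against 0.217, 0.157 and 3.36 CPM in medium. Its medium levels rest on few reads in every clone but WT 3, and its 8.29 ± 1.29 (KO clones) and 7.41 ± 1.10 (WT clones) were the highest log2 fold changes of the 48 genes.

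KO 2 stood apart from KO 1A and KO 1B in the Ifit family under LPS/IFN-γ. KO 2 was also 2.33-fold above the lowest KO clone for Rsad2, 1.62-fold for Cmpk2 and 1.465-fold for Mx1. For Ifitm3, Bst2, Pnpt1, Mx2, Samhd1 and Isg20 the KO clones differed by only 1.08-fold to 1.24-fold. Ifit2 had 304, 282 and 541 CPM in KO clones and 810, 211 and 1694 CPM in WT clones under LPS/IFN-γ, against 17.7, 17.4 and 27.1 CPM in KO clones and 14.8, 23.8 and 27.99 CPM in WT clones in medium. Ifit3 had 54.7, 54.9 and 203 CPM in KO clones under LPS/IFN-γ, so that KO 2 was 3.71-fold above KO 1A, and 177, 56.5 and 263 CPM in WT clones. The low value of KO 1A and KO 1B was close to that of WT 2, and the high value of KO 2 lay between those of WT 1 and WT 3. Ifit3 and Ifit3b share 98% of 1697 aligned transcript bases and Mx1 and Mx2 share 94.9% of 919, as Phf11b and Phf11d share 91.7% of 1102, so the division of reads within these pairs is uncertain. Samhd1, which depletes the nucleotides that retroviruses need, had 1148, 1097 and 1295 CPM in KO clones under LPS/IFN-γ, against 118, 126 and 114 CPM in medium. In WT clones Samhd1 had 1049, 1483 and 1591 CPM under LPS/IFN-γ, against 128, 130 and 170 CPM in medium. It was 1 of the 3 genes for which WT 2 was not the lowest WT clone under LPS/IFN-γ. Ifitm3, which blocks fusion of viruses with endosomes, had 590, 583 and 629 CPM in KO clones under LPS/IFN-γ, against 138, 152 and 201 CPM in medium. In WT clones it had 490, 447 and 800 CPM under LPS/IFN-γ, against 135, 138 and 285 CPM in medium. It rose by 1.88 ± 0.31 in KO clones and 1.64 ± 0.31 in WT clones on the log2 scale, from a high basal level. Pnpt1, a mitochondrial RNA-degrading enzyme, had 347, 322 and 355 CPM in KO clones under LPS/IFN-γ, against 128, 139 and 135 CPM in medium. In WT clones Pnpt1 had 354, 203 and 370 CPM under LPS/IFN-γ, against 149, 115 and 174 CPM in medium. Its log2 fold changes of 1.35 ± 0.21 in KO clones and 1.08 ± 0.21 in WT clones were the smallest among genes called in both genotypes. Isg20, an exonuclease, rose by 3.94 ± 1.11 in KO clones (edgeR adjusted p = 0.012) and 3.15 ± 0.99 in WT clones (adjusted p = 0.024) on the log2 scale, at no more than 34.1 CPM in any library. The KO call of Isg20 was lost without any 1 KO clone (adjusted p = 0.061 to 0.076), and its WT call without WT 1 (0.065) or without KO 1A (0.051).

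Compared per transcript length, as RPKM (counts scaled to library size and to summed exon length, mean ± SD over 3 clones), Ifitm3 was the most abundant of the 48 genes in all 4 groups. Its level was 886 ± 36.4 RPKM in KO clones under LPS/IFN-γ and 241 ± 49.3 RPKM in KO clones in medium. It was 854 ± 284 RPKM in WT clones under LPS/IFN-γ and 274 ± 127 RPKM in WT clones in medium. Ifit1 moved to the second place under LPS/IFN-γ, at 307 ± 183 RPKM in KO clones and 350 ± 188 RPKM in WT clones, a spread that overlaps those of Trim30a, Usp18 and Isg15 below it. The lowest level in medium was that of Mx1, at 0.0713 RPKM in KO clones and 0.329 RPKM in WT clones, and the lowest under LPS/IFN-γ that of Isg20, at 4.41 RPKM in KO clones and 7.70 RPKM in WT clones.

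All 5 genes of the ISG15 system, in which a ubiquitin-like protein is joined to targets, rose in both genotypes, with median log2 fold changes of 4.09 in KO clones and 3.65 in WT clones. Isg15, the modifier itself, had 152, 187 and 206 CPM in KO clones under LPS/IFN-γ, against 0.600, 0.609 and 0.822 CPM in medium. In WT clones Isg15 had 106, 72.7 and 315 CPM under LPS/IFN-γ, against 1.59, 0 and 7.22 CPM in medium, where the count of 0 in WT 2 allows up to 0.235 CPM. WT 3 was the highest clone in both conditions. Usp18, which removes ISG15 and also restrains signalling at the type I receptor, had 684, 658 and 738 CPM in KO clones under LPS/IFN-γ, against 9.22, 11.1 and 9.21 CPM in medium. In WT clones Usp18 had 509, 222 and 1238 CPM under LPS/IFN-γ, against 5.51, 2.43 and 68.2 CPM in medium. The KO clones differed by at most 1.12-fold under stimulation, whereas WT 3 in medium was 28.1-fold above WT 2. Herc6, the ISG15 ligase of the mouse, had 156, 147 and 228 CPM in KO clones under LPS/IFN-γ, against 8.62, 11.02 and 11.6 CPM in medium. In WT clones Herc6 had 156, 89.2 and 234 CPM under LPS/IFN-γ, against 10.4, 10.2 and 17.3 CPM in medium. Its conditions did not overlap in either genotype. Uba7, the E1 enzyme that activates ISG15, rose by 2.23 ± 0.41 in KO clones and 2.51 ± 0.40 in WT clones on the log2 scale. Ube2l6, the E2 enzyme that carries it, rose by 3.17 ± 0.36 in KO clones and 1.89 ± 0.33 in WT clones.

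The 9 genes of PML bodies and nuclear or TRIM factors all rose, with median log2 fold changes of 3.82 in KO clones and 3.49 in WT clones. Trim30a, a TRIM protein of rodents, had 1092, 1017 and 1134 CPM in KO clones under LPS/IFN-γ, against 37.5, 37.4 and 52.4 CPM in medium. In WT clones Trim30a had 1047, 609 and 1504 CPM under LPS/IFN-γ, against 48.2, 35.5 and 105 CPM in medium. WT 2 was the lowest and WT 3 the highest clone in both conditions. Helz2, a helicase and transcriptional coactivator, had 641, 670 and 680 CPM in KO clones under LPS/IFN-γ, against 47.5, 42.7 and 34.1 CPM in medium. In WT clones Helz2 had 480, 297 and 686 CPM under LPS/IFN-γ, against 42.9, 21.1 and 66.2 CPM in medium. The WT clones again lay on both sides of the KO clones. Trim21, an intracellular antibody receptor, rose by 2.58 ± 0.31 in KO clones and 2.61 ± 0.31 in WT clones on the log2 scale. The WT call of Phf11d was lost without WT 1 (edgeR adjusted p = 0.069).

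Among the other 13 interferon-induced genes, 11 were called higher in KO clones and 9 in WT clones, against 26.7% and 23.8% of all genes. The median log2 fold changes were 3.32 in KO clones and 2.73 in WT clones. Ifi44 had 1124, 1042 and 1062 CPM in KO clones under LPS/IFN-γ, against 32.6, 31.5 and 30.3 CPM in medium. In WT clones Ifi44 had 759, 447 and 1508 CPM under LPS/IFN-γ, against 16.5, 6.11 and 171 CPM in medium. All 3 KO clones lay inside the range of the WT clones in both conditions. Ifi27, a mitochondrial protein, had 138, 127 and 170 CPM in KO clones under LPS/IFN-γ, against 100, 80.5 and 145 CPM in medium. In WT clones it had 151, 125 and 87.6 CPM under LPS/IFN-γ, against 108, 70.0 and 84.8 CPM in medium. The conditions overlapped in both genotypes and neither response passed the test, at 0.42 ± 0.25 in KO clones (edgeR adjusted p = 0.19) and 0.47 ± 0.25 in WT clones (adjusted p = 0.15) on the log2 scale. Its relative Ifi27l2a had 30.5, 39.9 and 13.3 CPM in KO clones under LPS/IFN-γ, against 17.2, 18.5 and 6.25 CPM in medium. In WT clones Ifi27l2a had 5.75, 10.0 and 223 CPM under LPS/IFN-γ, against 2.46, 5.87 and 114 CPM in medium. Each clone was higher under LPS/IFN-γ than in medium, but the clones differed from each other by more than the conditions did. With clone as a block, which compares each clone with itself, both genes were called higher in each genotype. The blocked log2 fold changes of Ifi27 were 0.45 in KO clones (edgeR adjusted p = 0.020) and 0.46 in WT clones (adjusted p = 0.021). Those of Ifi27l2a were 1.00 in KO clones (adjusted p = 4.1e-05) and 0.96 in WT clones (adjusted p = 0.00010). The blocked fit called all 48 genes higher in KO clones and in WT clones, against 32.1% and 29.8% of all genes.

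Rtp4, a chaperone of chemosensory receptors, and Epsti1 were called in KO clones but not in WT clones. Rtp4 had 138, 121 and 164 CPM in KO clones under LPS/IFN-γ, against 8.62, 7.23 and 8.47 CPM in medium. In WT clones Rtp4 had 170, 45.7 and 192 CPM under LPS/IFN-γ, against 4.71, 0.548 and 54.4 CPM in medium. WT 3 in medium was above WT 2 under stimulation, so the conditions overlapped, and WT 3 was 99.3-fold above WT 2 in medium. Its log2 fold change was 4.12 ± 1.14 in KO clones (edgeR adjusted p = 0.011) and 2.76 ± 1.06 in WT clones (adjusted p = 0.053; in the blocked fit 0.0060). Epsti1 had 66.0, 64.3 and 78.2 CPM in KO clones under LPS/IFN-γ, against 8.25, 9.53 and 11.1 CPM in medium. In WT clones Epsti1 had 73.9, 22.3 and 153 CPM under LPS/IFN-γ, against 9.27, 4.07 and 46.2 CPM in medium. Its WT conditions overlapped in the same way, with log2 fold changes of 2.85 ± 0.85 in KO clones (edgeR adjusted p = 0.016) and 2.06 ± 0.81 in WT clones (adjusted p = 0.058; in the blocked fit 4.2e-05). Without WT 3 the WT responses were called for both genes, at 5.33 for Rtp4 (adjusted p = 0.0016) and 2.85 for Epsti1 (adjusted p = 0.0046). Their KO calls were lost without any 1 KO clone, with adjusted p of 0.068 to 0.069 for Rtp4 and 0.078 to 0.089 for Epsti1. No difference between the genotypes' responses was called for either gene.

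**Figure D2:**
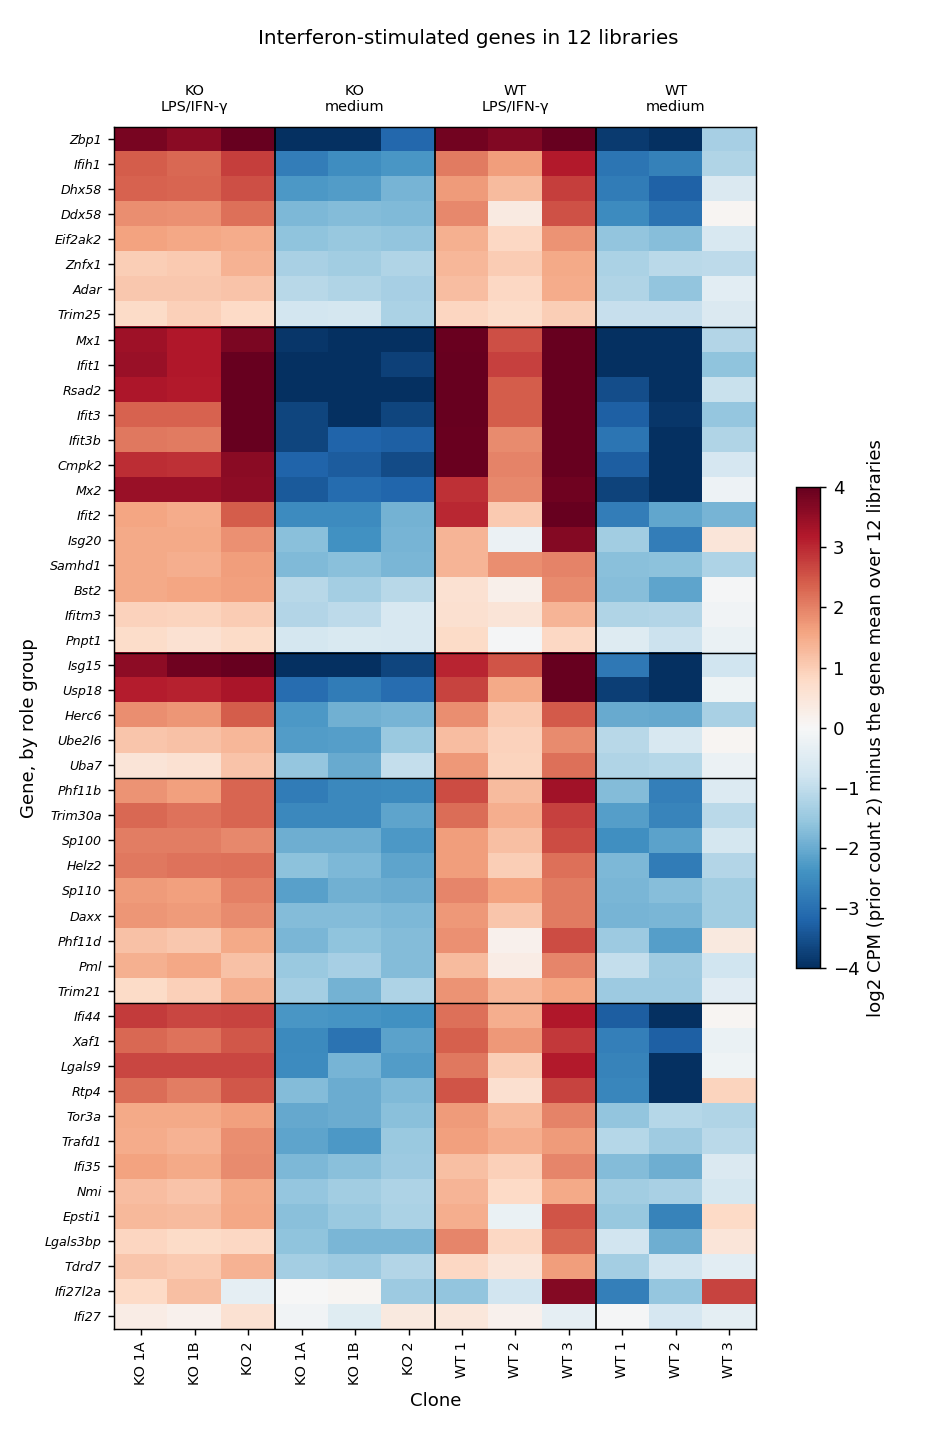
Log2 CPM of each of the 48 genes minus its mean over the 12 libraries (colour, which saturates at a difference of 4 in either direction), with genes as rows in 5 role groups and clones as columns in 4 groups. The columns under LPS/IFN-γ are red and those in medium blue for nearly all genes, and WT 3 in medium is paler than the other medium columns.

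The clones differed in the level of these genes, and WT 3 stood apart in medium. WT 3 was the highest of the 6 clones in medium for 46 of the 48 genes, against 18.9% of all genes, and WT 2 was the lowest for 26, against 25.1%. The median log2 deviation of the 48 genes from their mean over the 6 clones was -0.22, -0.14 and -0.05 in KO 1A, 1B and 2 and -0.09, -0.50 and 1.2 in WT 1, 2 and 3. Over all genes that median lay within 0.02 of 0 in each library. The summed level of the 48 genes in medium was 1511, 1523 and 1648 CPM in KO clones and 1563, 1412 and 3116 CPM in WT clones. WT 3 lay far above the other clones, WT 1 within the KO range and WT 2 just below it. The medium library of WT 3 was also the deepest of the 12, and the part of depth in its level was not tested. The exceptions to its rank among the 3 WT clones were Ifi27 and Tor3a.

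Under LPS/IFN-γ the same clone was the highest of 6 for 44 of the 48 genes, against 16.3% of all genes, and WT 2 was the lowest for 38, against 25.1%. The median log2 deviation was -0.04, -0.07 and 0.19 in KO 1A, 1B and 2 and 0.04, -0.80 and 0.64 in WT 1, 2 and 3. The summed level was 15570, 15050 and 18970 CPM in KO clones and 16920, 10540 and 25790 CPM in WT clones. WT 2 was thus low and WT 3 high under stimulation, with WT 1 inside the KO range. Among the WT clones, the order 3, 1, 2 held for 43 of the 48 genes under LPS/IFN-γ (17.5% of all genes) and for 32 in medium (22.6%).

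**Figure D3:**
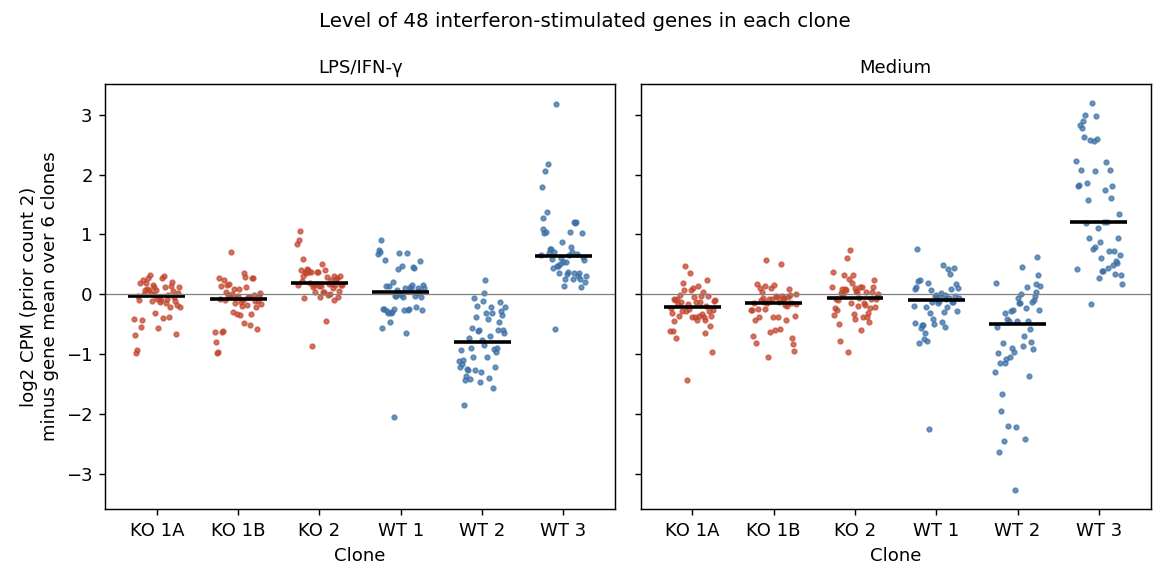
Log2 CPM of each of the 48 genes minus its mean over the 6 clones (vertical axis), by clone, under LPS/IFN-γ (left) and in medium (right). Each point is a gene and each bar the median of a clone, which is 0.64 under LPS/IFN-γ and 1.2 in medium for WT 3 and -0.80 and -0.50 for WT 2.

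The coefficient of variation over the 3 KO clones had a median of 13.6% under LPS/IFN-γ and 15.0% in medium, close to the 11.3% and 10.2% of all genes. Over the 3 WT clones the median was 48.5% under LPS/IFN-γ and 70.5% in medium, against 18.3% and 15.3% for all genes. The variation was larger in WT than in KO clones for 43 of the 48 genes under LPS/IFN-γ (72.0% of all genes) and for 45 in medium (67.4%). The KO clones may include 2 cultures of 1 clone, which cannot be told apart from separate clones here. Each clone set against itself gave a median log2 ratio of LPS/IFN-γ over medium of 3.62, 3.63 and 3.83 in KO 1A, 1B and 2 and of 3.54, 3.13 and 3.16 in WT 1, 2 and 3. All 48 ratios were above 0 in every clone. The ratio was the smallest of the 6 in WT 3 for 30 of the 48 genes, against 18.4% of all genes.

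In medium none of the 48 genes was called between KO and WT clones in either direction (edgeR), against 0.352% of all genes called higher and 0.858% called lower. The unadjusted p was below 0.05 for 5 of the 48, against 14.1% of all genes, for 23 without WT 2 (13.7%) and for 9 without WT 3 (18.8%), and it ranged from 3 to 8 without any other 1 clone. DESeq2 called 2 lower, Ube2l6 and Trafd1, against 3.61%. The log2 difference was negative for 47 of the 48 genes with a median of -0.62, without WT 3 the median was 0.07 with 30 genes positive and 18 negative, and without WT 2 it was -0.83 with 47 negative. Usp18 is an example, at -1.38 with all clones and 1.30 without WT 3. The KO clones lay below all WT clones for 5 genes, Samhd1, Tor3a, Sp110, Trafd1 and Ube2l6 (11.4% of all genes), and above all of them for none (9.5%).

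The gene with the smallest p was Ube2l6, the E2 enzyme of ISG15, at 5.85, 5.95 and 9.95 CPM in KO clones and 13.0, 17.9 and 29.9 CPM in WT clones in medium. The groups did not overlap, and the log2 difference was -1.49 ± 0.34 (edgeR adjusted p = 0.070, DESeq2 adjusted p = 0.0012). Without WT 3 it was -1.10 and was called (edgeR adjusted p = 0.046), the 1 gene of the 48 called lower in that fit, against 2.69% of all genes. Under LPS/IFN-γ Ube2l6 had 60.6, 63.4 and 71.0 CPM in KO clones and 66.2, 53.9 and 105 CPM in WT clones, and the groups overlapped. Trafd1, a zinc-finger inhibitor of TLR signalling, had 25.0, 21.9 and 39.3 CPM in KO clones and 49.1, 41.0 and 52.1 CPM in WT clones in medium. KO 2 lay just below the WT clones and the other KO clones further down, with a log2 difference of -0.72 ± 0.21 (edgeR adjusted p = 0.13, DESeq2 adjusted p = 0.031). Without KO 2 it was -1.02 and was called by edgeR (adjusted p = 0.019). Under LPS/IFN-γ Trafd1 had 304, 285 and 400 CPM in KO clones and 341, 301 and 358 CPM in WT clones, with KO clones on both sides of the WT clones.

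Tor3a, a torsin-family ATPase, had 57.8, 59.6 and 74.3 CPM in KO clones and 78.8, 107 and 102 CPM in WT clones in medium. WT 2 was its highest clone in medium, as for no other of the 48 genes, and its log2 difference of -0.59 ± 0.18 did not pass the test (edgeR adjusted p = 0.16). Under LPS/IFN-γ Tor3a had 678, 678 and 744 CPM in KO clones and 781, 584 and 946 CPM in WT clones, which overlapped. Sp110, a nuclear body protein, had 21.7, 25.9 and 24.7 CPM in KO clones and 27.2, 29.8 and 37.4 CPM in WT clones in medium. Its log2 difference in medium was -0.39 ± 0.16 (edgeR adjusted p = 0.31), with every KO clone below every WT clone. Under LPS/IFN-γ Sp110 had 317, 308 and 395 CPM in KO clones and 379, 302 and 418 CPM in WT clones. Lgals3bp, a secreted galectin-binding glycoprotein, had 24.5, 21.2 and 21.1 CPM in KO clones and 44.6, 19.6 and 107 CPM in WT clones in medium. WT 2 was level with the KO clones and the other WT clones were above them, and without WT 2 the log2 difference changed to -1.77 and was called (edgeR adjusted p = 0.029), against -1.36 ± 0.52 with all clones (adjusted p = 0.27).

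**Figure D4:**
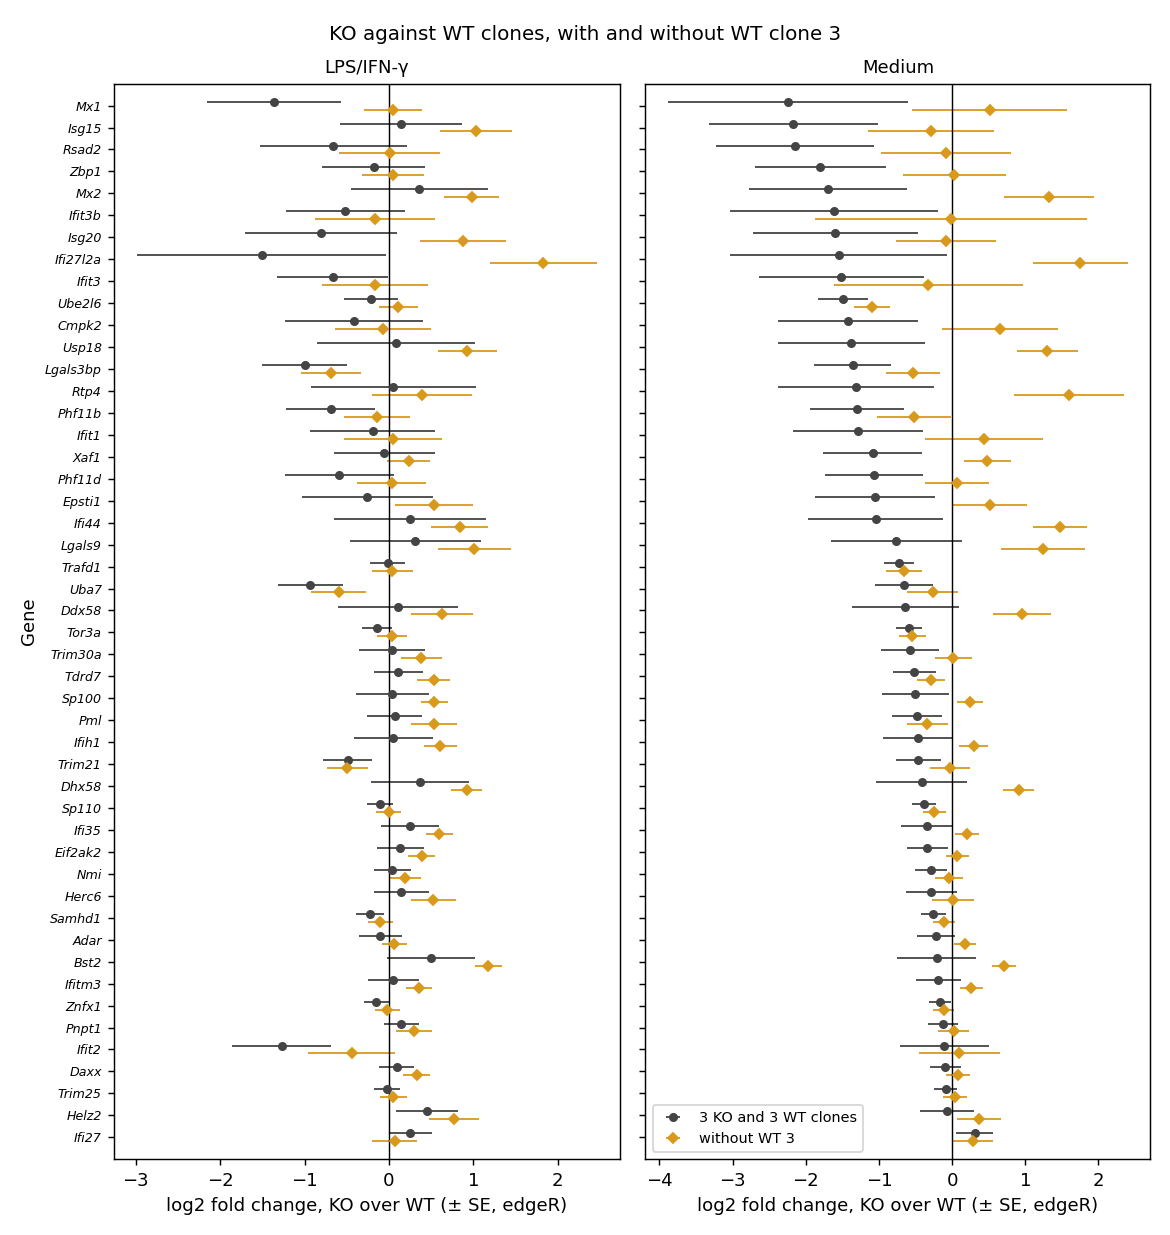
Log2 fold change of KO over WT clones for each of the 48 genes under LPS/IFN-γ (left) and in medium (right), from edgeR with ± SE, with all 3 clones of each genotype (grey circles) and without WT 3 (orange diamonds). In medium 47 of the grey circles lie below 0, and 30 of the orange diamonds lie above it.

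Under LPS/IFN-γ none of the 48 genes was called between the genotypes (edgeR), against 1.13% of all genes called higher and 3.51% called lower in KO clones. The unadjusted p was below 0.05 for 1 of the 48, against 21.2% of all genes, for 15 without WT 3 (26.0%), for 5 without WT 2 (20.9%) and for 0 to 3 without any other 1 clone, and DESeq2 called none. The median log2 difference was -0.02, with 23 genes positive and 25 negative. Without WT 3 it was 0.26 with 37 positive and 11 negative, and without WT 2 it was -0.24 with 6 positive and 42 negative. The genotypes overlapped for all 48 genes, while 11.3% of all genes lay wholly higher and 12.7% wholly lower in KO clones. Uba7, the E1 enzyme of ISG15, had the smallest p, at 62.8, 66.7 and 96.5 CPM in KO clones and 146, 81.9 and 203 CPM in WT clones. Only WT 2 reached the KO range, and the log2 difference was -0.93 ± 0.38 (edgeR adjusted p = 0.20). In medium Uba7 had 14.8, 10.8 and 22.5 CPM in KO clones and 18.8, 19.6 and 37.1 CPM in WT clones. Ifit2 (values above) differed by -1.27 ± 0.59 (edgeR adjusted p = 0.25) and Mx1 by -1.36 ± 0.80 (adjusted p = 0.36), with WT 2 below the KO clones for both. Lgals3bp had 138, 129 and 134 CPM in KO clones and 293, 136 and 373 CPM in WT clones under LPS/IFN-γ, a log2 difference of -1.0 ± 0.51 (edgeR adjusted p = 0.29). Without WT 2 that difference was -1.30 and was called (adjusted p = 0.045). WT 2 was the 1 WT clone within the KO range. Trim21 had 46.5, 53.9 and 75.7 CPM in KO clones and 95.5, 69.5 and 82.0 CPM in WT clones under LPS/IFN-γ, against 10.7, 7.23 and 11.5 CPM in KO clones and 10.0, 9.95 and 20.3 CPM in WT clones in medium. Its log2 difference under LPS/IFN-γ was -0.49 ± 0.29 (edgeR adjusted p = 0.36).

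Without WT 3, 2 genes were called higher in KO clones under LPS/IFN-γ, against 2.18% of all genes, and none was called lower, against 5.72%. Bst2, the tether that holds budding virions at the cell surface, had 164, 173 and 181 CPM in KO clones and 87.2, 65.7 and 214 CPM in WT clones. Dhx58, which encodes the RIG-I-like protein LGP2, had 247, 241 and 287 CPM in KO clones and 157, 116 and 326 CPM in WT clones. In both genes WT 1 and WT 2 lay below every KO clone and WT 3 above them. Without WT 3 the log2 difference was 1.18 for Bst2 (edgeR adjusted p = 0.0046) and 0.92 for Dhx58 (adjusted p = 0.021), against 0.50 ± 0.52 and 0.37 ± 0.58 with all clones.

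**Figure D5:**
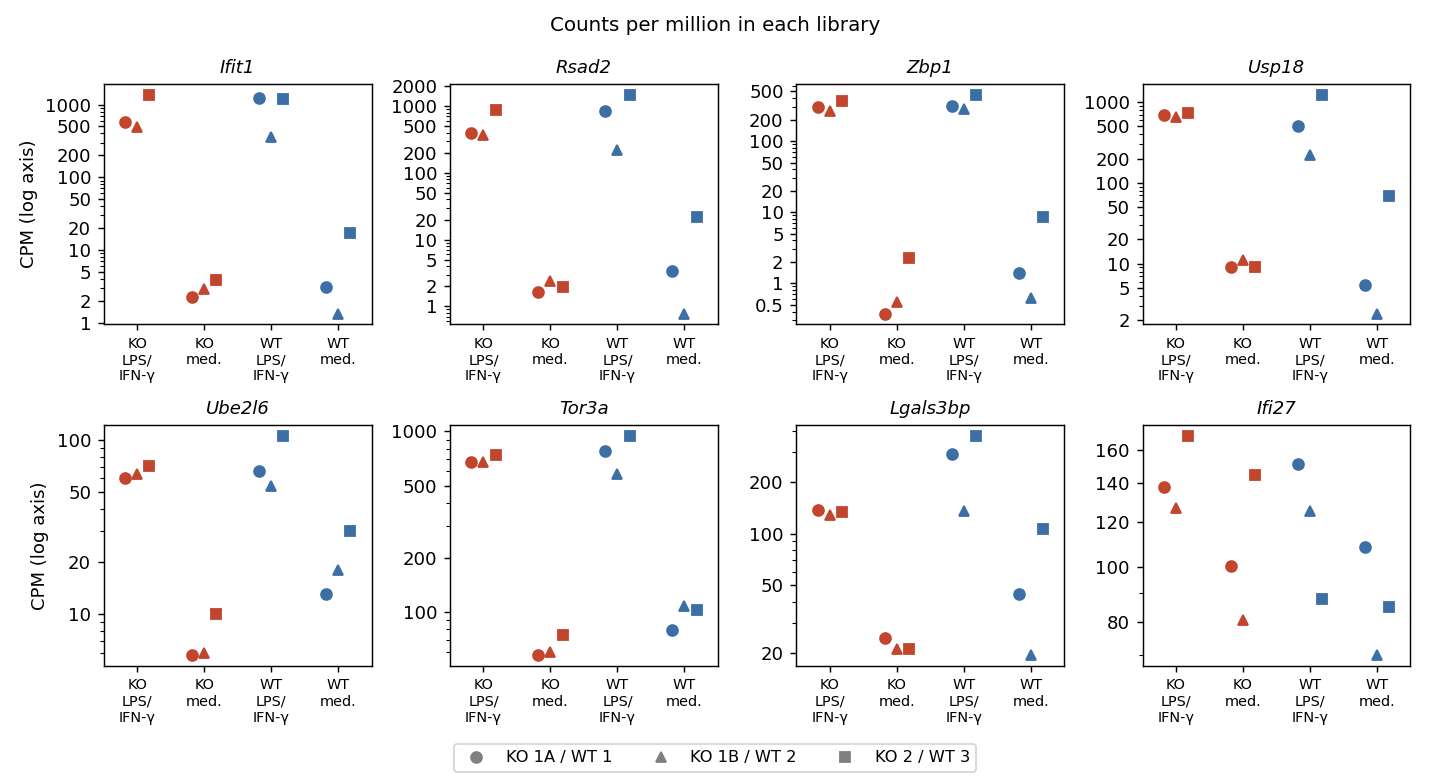
CPM of 8 of the genes in every library on a log axis, with KO clones in red, WT clones in blue and marker shapes for the 3 clones of each genotype. WT 3 in medium reaches 68.2 CPM for Usp18 against 2.43 CPM in WT 2, and the KO clones of Ube2l6 in medium lie below the WT clones.

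The response itself was not called different between the genotypes for any of the 48 genes (edgeR interaction), and none of all genes tested was (0.0%). DESeq2 and the fit with clone as a block called none of the 48 either, and the unadjusted p was below 0.05 for 2 of them, against 5.0% of all genes, and for 13 with the block, against 11.6%. The median log2 difference of the responses, KO minus WT, was 0.60 with 44 genes positive, and without WT 3 it was 0.08 with 30 positive and 18 negative. The genes with the smallest p were Ube2l6, at 1.28 ± 0.47 (edgeR adjusted p = 0.86; blocked 1.28 ± 0.23, adjusted p = 0.063), and Trafd1, at 0.71 ± 0.29 (adjusted p = 0.95; blocked 0.73 ± 0.13, adjusted p = 0.054). Isg15 had a difference of 2.31 ± 1.38, Tdrd7 one of 0.63 ± 0.41 and Tor3a one of 0.45 ± 0.25, each with an adjusted p of 1.0. Tdrd7, a tudor-domain protein that inhibits autophagy needed by some viruses, had 163, 158 and 198 CPM in KO clones under LPS/IFN-γ, against 29.7, 27.9 and 33.8 CPM in medium. In WT clones Tdrd7 had 134, 106 and 240 CPM under LPS/IFN-γ, against 29.6, 44.8 and 56.2 CPM in medium. The KO clones lay within the WT range under stimulation and near or below its low end in medium.

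Of 41 further genes of the interferon pathway, 36 were measured. KO clones had 23 that rose and 3 that fell, against 26.7% and 27.6% of all genes. WT clones had 24 that rose and 2 that fell, against 23.8% and 23.6% of all genes. The blocked fit had 24 that rose and 5 that fell in KO clones, adding Ptpn1, Ptpn6 and Ticam2. For WT clones it had 27 that rose and 4 that fell, adding Ifnar1, Ifnar2, Ifngr1, Ptpn1 and Ptpn6. Of all genes, that fit called 32.1% higher in KO clones and 29.8% in WT clones. The median log2 fold change of the 36 genes was 1.01 in KO clones and 1.03 in WT clones. None of them was called between the genotypes by edgeR in medium or under LPS/IFN-γ or in the difference of the responses. Their unadjusted p was below 0.05 for 3, 4 and 0 of the 36, against 14.1%, 21.2% and 5.0% of all genes. Ifnb1, which encodes IFN-β, had 191, 224 and 184 counts in KO clones under LPS/IFN-γ, against 1, 0 and 0 counts in medium. In WT clones Ifnb1 had 445, 190 and 367 counts under LPS/IFN-γ, against 1, 0 and 3 counts in medium, so basal transcripts were near the limit of detection in every clone. No receptor chain was called higher in either genotype. The blocked fit called Ifnar1 and Ifnar2 higher in WT clones, at 0.38 (edgeR adjusted p = 0.0068) and 0.26 (adjusted p = 0.023) on the log2 scale. Ifnar1 had 73.7, 70.3 and 102 CPM in KO clones and 93.6, 146 and 112 CPM in WT clones under LPS/IFN-γ, against 76.0, 74.4 and 92.2 CPM in KO clones and 82.7, 98.5 and 85.2 CPM in WT clones in medium. Ifngr1 was the 1 chain called lower, by 0.69 ± 0.21 in KO clones on the log2 scale (edgeR adjusted p = 0.016), and with the block it was also called lower in WT clones (-0.44, adjusted p = 0.0091). Ifngr2, the signalling chain of the IFN-γ receptor, had 86.3, 80.1 and 133 CPM in KO clones and 152, 245 and 125 CPM in WT clones under LPS/IFN-γ, against 72.6, 76.1 and 95.3 CPM in KO clones and 130, 172 and 121 CPM in WT clones in medium. The genotypes overlapped in KO 2 and WT 3 under LPS/IFN-γ and not in medium, and neither difference was called (-0.80 ± 0.27 in each condition, edgeR adjusted p = 0.12 under LPS/IFN-γ and 0.19 in medium).

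Of the 9 transcription factors on that list, 8 rose in each genotype, and Irf3 was not called. Among all genes, 26.7% rose in KO clones and 23.8% in WT clones. Irf1 had 644, 659 and 892 CPM in KO clones and 970, 1207 and 831 CPM in WT clones under LPS/IFN-γ, against 15.5, 14.4 and 19.6 CPM in KO clones and 18.4, 19.4 and 23.1 CPM in WT clones in medium. Under stimulation WT 2 was the highest clone for Irf1, whereas it was the highest for none of the 48 genes. Irf8 had 1056, 1028 and 808 CPM in KO clones and 625, 1504 and 1269 CPM in WT clones under LPS/IFN-γ, against 65.9, 58.8 and 64.0 CPM in KO clones and 36.9, 76.5 and 77.2 CPM in WT clones in medium. Irf5 had 410, 407 and 526 CPM in KO clones and 400, 750 and 544 CPM in WT clones under LPS/IFN-γ, against 201, 184 and 186 CPM in KO clones and 180, 243 and 252 CPM in WT clones in medium. WT 2 was the highest clone for Irf8 and Irf5 under LPS/IFN-γ as well. Irf7, the interferon-induced master regulator of the response, and Irf9, a DNA-binding part of the complex at the ISRE, were named after their values were seen. Irf7 had 16.2, 16.7 and 21.6 CPM in KO clones and 11.1, 3.45 and 118 CPM in WT clones in medium. Irf9 had 40.3, 34.96 and 42.4 CPM in KO clones and 28.3, 21.9 and 92.2 CPM in WT clones in medium. These factors had WT 3 as the highest and WT 2 as the lowest clone in medium.

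Of the 11 measured genes that induce interferon, 7 rose and 2, Tlr4 and Mavs, fell in each genotype. The shares of all genes were 26.7% higher and 27.6% lower in KO clones and 23.8% and 23.6% in WT clones. Tlr4, the receptor for LPS, had 24.7, 24.5 and 43.4 CPM in KO clones and 18.1, 30.8 and 19.8 CPM in WT clones under LPS/IFN-γ, against 155, 134 and 262 CPM in KO clones and 79.0, 96.5 and 73.5 CPM in WT clones in medium. In medium every KO clone was above every WT clone, a log2 difference of 1.15 ± 0.31 that was not called (edgeR adjusted p = 0.11). Cd14, its co-receptor, had 1979, 1686 and 3035 CPM in KO clones and 2093, 1405 and 1126 CPM in WT clones under LPS/IFN-γ, against 411, 387 and 598 CPM in KO clones and 594, 121 and 553 CPM in WT clones in medium. WT 2 was its lowest clone in medium and WT 3 under LPS/IFN-γ. Ikbke, a kinase that activates IRF3 and IRF7, had 80.2, 78.5 and 103 CPM in KO clones and 128, 67.0 and 97.7 CPM in WT clones under LPS/IFN-γ, against 4.499, 6.02 and 5.10 CPM in KO clones and 3.19, 1.57 and 5.22 CPM in WT clones in medium. Both genes rose in each genotype. Of the 8 inhibitors, 4 rose in KO clones and 5 in WT clones, against 26.7% and 23.8% of all genes. Socs1, which blocks JAK kinases, had 29.7, 35.2 and 38.0 CPM in KO clones and 36.5, 79.1 and 55.6 CPM in WT clones under LPS/IFN-γ, against 0.825, 0.406 and 0.822 CPM in KO clones and 0.652, 0.392 and 0.684 CPM in WT clones in medium. Socs3 had 697, 582 and 971 CPM in KO clones and 746, 841 and 718 CPM in WT clones under LPS/IFN-γ, against 20.4, 14.8 and 20.6 CPM in KO clones and 21.8, 10.4 and 15.9 CPM in WT clones in medium. WT 2 was the highest clone for Socs1 under LPS/IFN-γ, and the log2 difference between the genotypes was -0.73 ± 0.26 (edgeR adjusted p = 0.14). The phosphatase gene Ptpn11 had 192, 188 and 169 CPM in KO clones and 152, 150 and 162 CPM in WT clones in medium, without overlap, and a log2 difference of 0.25 ± 0.08 (edgeR adjusted p = 0.20).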

How the data were processed

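The authors deposited 1 table of raw counts per Ensembl gene for the 12 libraries, with mm10 and GRCm38 named as the build and DESeq2 as a tool of unstated role per the submitters' processing notes. What aligned and counted the reads, and whether by strand, is not stated in the labels. How reads of overlapping genes were divided is therefore unknown. The exon overlap was 16.8% for Ifi35 and for Adar, with a gene on the opposite strand. It was 13.9% for Rtp4 and 13.7% for Herc6, with a gene on the same strand, which counting by strand would not separate. GENCODE M21 named 12305 of the IDs and left 178 unnamed. Counts were fitted with edgeR 4.0.16 in R 4.3.3 (filterByExpr, 12231 genes tested and 252 left out, TMM scaling, robust quasi-likelihood, 1 mean per group, 8 residual degrees of freedom, Benjamini-Hochberg adjustment over all genes tested), and the procedure was tested on simulated data. The simulated libraries were drawn independently, without a clone effect, so they cannot speak to the pairing by clone. CPM uses TMM-scaled library sizes, log2 CPM a prior count of 2, and RPKM the summed exon length. A count of 0 was given an upper limit of 3 counts, which covers counting error only. Each SE was taken from the quasi-likelihood F as |log2 fold change| / √F.

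The labels pair the libraries by clone. Within a clone, deviations from the group mean under LPS/IFN-γ and in medium had a correlation of 0.32, 0.29 and 0.51 for KO 1A, 1B and 2 and of 0.64, 0.70 and 0.62 for WT 1, 2 and 3. Set against the libraries of other clones, KO 1A reached 0.27, KO 1B reached 0.18 and the rest stayed below 0. The deviations sum to 0 in each group, so values below 0 between clones were partly set by the calculation. The clone block, DESeq2 1.42.0, RLE size factors, library totals, no filter, a 1.5-fold threshold (glmTreat), KO 1A and 1B summed, and each clone left out were alternatives.

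Values in every library are given for the 2 genes of highest mean CPM in each role group, the 4 highest and 4 lowest log2 fold changes of each response, genes not called in a response and the 5 smallest p of each comparison of genotypes. Of the pathway list they are given for the 3 smallest p of each comparison of genotypes and the 6 highest mean CPM among called genes, 1 of which is not reported here. Bst2, Cmpk2, Dhx58, Ifit3, Ifnb1, Irf7 and Irf9 were added after their values were seen. The 48 genes, the role groups and the other lists were chosen with earlier results of these data known. All 5 comparisons share the 12 libraries and each group serves in several of them.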

Additional observations from a re-analysis of the deposited data

How the results depend on the processing

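The counts of called genes were 46 in KO clones and 44 in WT clones for the responses and 0 for the differences between genotypes. RLE size factors, library totals and no filter on low counts left these counts unchanged, although library totals lowered the median of all genes by 0.39 in KO clones and 0.37 in WT clones on the log2 scale and the medians of the 48 genes to 3.40 in KO clones and 2.85 in WT clones. A 1.5-fold threshold gave 46 in KO clones and 43 in WT clones, where Isg20 was lost, against 12.3% and 10.2% of all genes. DESeq2 called 46 higher in each response, against 27.9% of all genes in KO clones and 25.3% in WT clones. It called 2 lower in KO than WT clones in medium, against 3.61%. With clone as a replicate block the responses gave 48 and 48 and the difference of responses 0, and beyond Ifi27, Ifi27l2a, Rtp4 and Epsti1 the block changed no other call of the 48 genes in the responses or their difference. Leaving out 1 clone at a time gave 43 to 46 in the KO response and 42 to 46 in the WT response. In KO against WT clones it gave 0 to 1 lower in medium, 0 to 1 lower under LPS/IFN-γ and 0 to 2 higher under LPS/IFN-γ, and the difference of responses stayed at 0. With KO 1A and 1B summed, 43 were called in the KO response. The genes among the 48 that the rules above chose for values in every library had 1827 log2 values under these alternatives. Of these values, 18 passed the test newly and 8 ceased to pass it. That set leaves out Isg20 and Phf11d, which also lost calls, and Bst2 and Dhx58, which also gained them. The sign changed in 76 of the 1827 values, 33 without WT 3 and 13 without WT 2, and none of the 76 was called in either fit. With 3 clones per group, differences between KO and WT clones could be missed where the WT clones spread widely. The smallest difference that could be detected was not estimated for these genes. The causes of the changed calls were not tested.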
